A study of Mus musculus with 7 samples.

Results

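Digestive enzymes and the regulators of the acinar programme were followed in mouse pancreatic islets as a set of 35 genes chosen by name, out of 34245 genes in the deposited table. The set holds 25 secreted enzyme genes (colipase counted among them), 5 genes of other granule or secreted proteins, 4 transcription factors and the mitochondrial enzyme Gatm. Amy2b is not analysed here, which leaves 34 genes and 24 enzymes, and all 34 passed the filter on low values (at least 10 reads at the median depth in at least 2 libraries). Prss1, Try10, Cela3a, Ptf1a and Rbpjl reached that value in KO libraries alone, so these 5 entered through the group where they are high. The question was whether enzyme transcripts and acinar transcription factors were higher by the same factor in each knockout (KO) library.

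Acinar cells make up most of the exocrine pancreas and store digestive enzymes as zymogens in granules for release into the gut. Their enzyme genes are switched on by the trimeric PTF1 complex, in which PTF1A and RBPJL bind DNA next to each other, with help from MIST1 (gene Bhlha15) and the nuclear receptor LRH-1 (gene Nr5a2). Islets lie inside this tissue and are freed from it by digestion, so islet RNA can hold acinar transcripts.

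Whole islets came from C57BL/6J mice at 8 weeks of age, and polyA-selected RNA was sequenced from 2 Control and 5 KO mice, 1 library each. Control 1 carried Rip1-Cre, a Cre driven by the insulin promoter, and wild type Abca12. Control 2 carried Rip1-Cre and was heterozygous for the floxed Abca12 allele. The KO mice (Abca12 tm1d) had the floxed allele deleted by Rip1-Cre, so every library came from a Cre carrier. Rip1-Cre acts in insulin-producing beta cells. Abca12, a lipid transporter, was listed at 0 reads in all 7 libraries, which allows up to 0.0696 to 0.125 RPM by library, so its reads check no label. RPM is a read count scaled to the depth of its library, and depth was 23923000 to 43117300 reads. The marker genes Prss2 and Ctrb1 were found in every library, so acinar transcripts were present in all of them, and insulin transcripts were far above both. KO 1 and KO 2 have column headers ending in f and the other 5 in m, and both Controls are among the latter. In bulk RNA, fewer cells of a type and less RNA per cell cannot be told apart.

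Enzyme transcripts were together higher in all 5 KO libraries than in either Control, but by median factors from 2.77 (KO 4) to 17.4 (KO 3). As a share of gene reads, the 24 enzymes took 0.170% in Control 1 and 0.0866% in Control 2. In KO 1 to KO 5 they took 0.628%, 2.14%, 2.25%, 0.349% and 0.409%. KO 2 and KO 3 stood far above the other 3, and even KO 4, the lowest KO library, stood above Control 1. Of the 29 genes that reached the filter value in a Control, every KO library lay above both Controls for 25 (19 of 21 enzymes, 5 of 5 granule genes and 1 of 2 transcription factors), against 6.36% of the 15860 such genes in the table. With the other 5, which the filter let in through KO, the count was 30 of 34, beside 6.75% of all 16212 genes tested. The exceptions were Prss3, Amy1, Bhlha15 and Gatm, and Gatm lay below both Controls in every KO library, as did 8.41% of all genes.

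By limma with Benjamini-Hochberg adjustment over all genes, 0 of the 34 genes passed the threshold of 0.05, where 0.0617% of all genes did. At an unadjusted p under 0.05 there were 28 of 34 (25 of the 29 that reached the filter value in a Control), beside 10.8% of all genes, and voom on the recovered reads also called 0. The median log2 fold change of the 34 genes was 2.52, beside -0.01 over all genes; it was 2.71 for enzymes, 2.54 for granule genes and 0.36 for transcription factors. Over the 29 it was 2.67, and 0.17 for the 2 transcription factors among them. These values add 1 RPM before the log, which understates low genes, so the classes are not on an equal footing here. Ptf1a and Rbpjl had log2 fold changes of 0.52 and 0.61 on this scale. With 0.1 RPM added they had 1.62 and 2.48, and by voom 2.42 and 4.66. Bhlha15 and Nr5a2 had 0.13 and 0.35 by voom. Without KO 2 and KO 3, the libraries with the highest enzyme levels, 20 genes passed as higher in KO (18 enzymes and 2 granule genes) where 0.253% of all genes did, and the median was 1.64. Leaving those libraries out was chosen with earlier results of these data known.

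**Figure D1:**
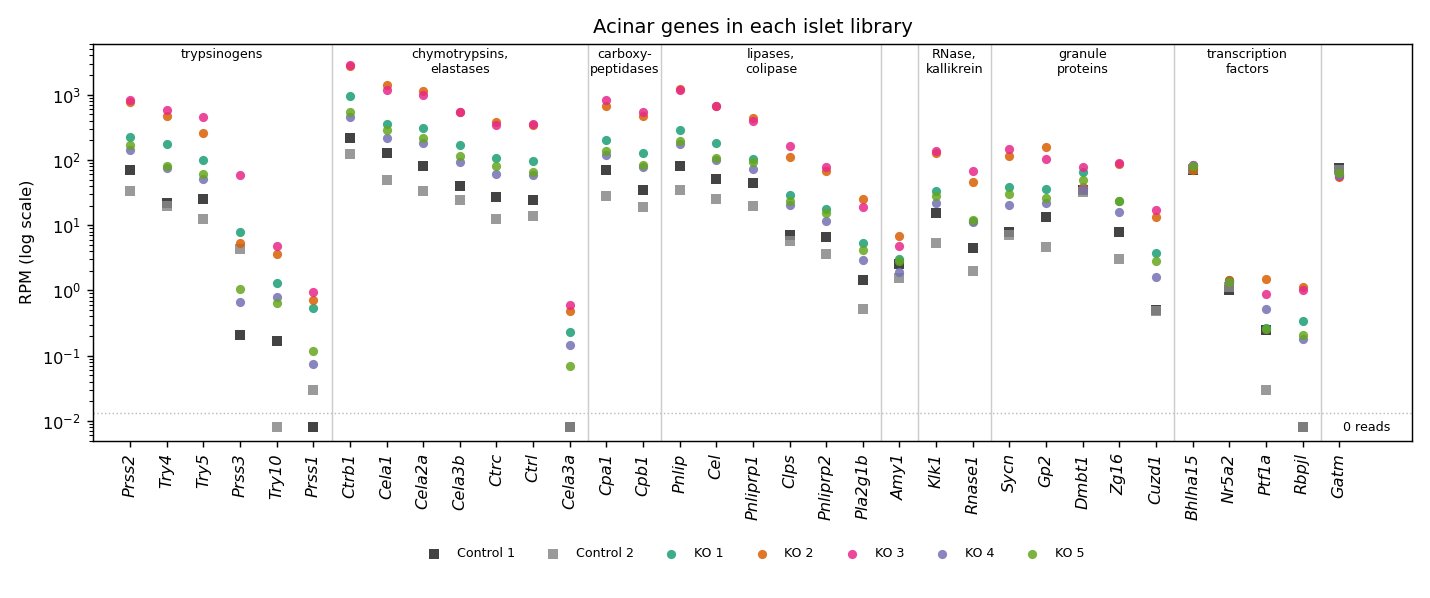
Level of each of the 34 acinar genes in each library, in RPM on a log axis, grouped by role; squares are the 2 Controls, circles the 5 KO libraries, and symbols under the dotted line had 0 reads. KO 2 and KO 3 lie highest for most enzyme and granule genes, while the points of Bhlha15, Nr5a2 and Gatm lie close together.

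Trypsinogens are the inactive precursors of trypsin, which activates the other zymogens in the gut. Prss2, the highest of them per kilobase, stood at 69.1 and 33.7 RPM in the Controls and 228, 786, 843, 143 and 169 RPM in KO 1 to KO 5. KO 2 and KO 3 stood far above the rest, and the groups did not overlap. Prss2 by limma gave 2.73 (SE 0.62) on the log2 scale, with an adjusted p of 0.127. Try4 stood at 22.0 and 19.6 RPM in the Controls and 174, 466, 589, 75.03 and 81.7 RPM in KO 1 to KO 5, and its Controls differed little. Try4 did not pass by limma, with a log2 fold change of 3.18 (SE 0.66, adjusted p = 0.0999). Across the 5 KO libraries Try4 was 8.37, 22.4, 28.3, 3.61 and 3.92-fold over the Control mean, above the median enzyme in each of them. Try5 stood at 25.6 and 12.7 RPM in the Controls and 101, 258, 449, 50.3 and 60.0 RPM in KO 1 to KO 5, so KO 3 stood well above KO 2. On the log2 scale the KO mean of Try5 differed by 2.77 (SE 0.67) from the Control mean (adjusted p = 0.146 by limma). Try10, a minor trypsinogen, stood at 0.167 and 0 RPM in the Controls and 1.30, 3.68, 4.84, 0.806 and 0.649 RPM in KO 1 to KO 5, with 4 reads over both Controls. Its adjusted p by limma was 0.239, at a log2 fold change of 1.40 (SE 0.42). Prss1 had 1 read over both Controls and 14, 19, 36, 2 and 5 reads in KO 1 to KO 5. Its ratio to the Control mean ran from 4.86 (95% counting interval 0.253 to 286.9, KO 4) to 62.8 (10.6 to 2549, KO 3).

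The trypsinogen genes lie in 1 cluster on chromosome 6 and are near copies. A 60-base stretch of each coding sequence (coding bases 34 to 93, GENCODE M21) is shown because it spans the activation site. Prss2 and Try4 differ at 1 of these 60 bases, but are 91.7% identical over the whole coding sequence. The stretch thus does not show how well reads separate the genes. It is read 5' to 3' along the coding strand, and capitals mark bases that differ from Prss2. Prss1 (chr6:41458932-41463786, plus strand) and Try5 (chr6:41311233-41316841, minus strand) have the same 60 bases as Try4. All positions are on GRCm38.
Prss2 (chr6:41521787-41525079, plus strand): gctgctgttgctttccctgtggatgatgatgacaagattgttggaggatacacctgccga
Try4 (chr6:41302269-41305532, plus strand): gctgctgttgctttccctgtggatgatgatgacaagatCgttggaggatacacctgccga
Try10 (chr6:41354105-41357914, plus strand): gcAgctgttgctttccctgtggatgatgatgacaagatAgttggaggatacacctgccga
Prss3 (chr6:41373814-41377678, minus strand): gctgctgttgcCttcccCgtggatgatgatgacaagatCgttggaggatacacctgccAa
Try4 and Try5 were identical at 97.4% of aligned coding bases, and Prss2 at 88.6% to 91.7% with the other trypsinogens of the set. Of the 50-base words in the coding sequence, 8.71% in Prss2 occurred in another gene's transcripts, beside 70.2% in Try4, 58.8% in Try5, 57.2% in Prss1, 46.7% in Try10 and 73.7% in Prss3. How the authors' counting treated reads that match several genes is not given in the sources used here, so the values of all trypsinogens other than Prss2 are uncertain one by one. Summed over the 6 genes, trypsinogens stood at 117 and 70.3 RPM in the Controls and 514, 1519, 1945, 269.5 and 313 RPM in KO 1 to KO 5.

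Prss3 did not follow the other trypsinogens. It stood at 0.209 and 4.34 RPM in the Controls and 7.85, 5.33, 58.0, 0.659 and 1.07 RPM in KO 1 to KO 5. KO 3 was far above all others, while KO 4 and KO 5 lay below Control 2. For Prss3 limma gave a log2 fold change of 1.35 (SE 1.06, adjusted p = 0.7001). Its neighbours Gm5771 and Gm10334, named after their values were seen, share sequence with it (Gm10334 is identical to Prss3 at 99.1% of coding bases). Gm5771 stood at 0 and 0.753 RPM in the Controls and 1.61, 0.376, 17.7, 0.183 and 0.116 RPM in KO 1 to KO 5. Gm10334 stood at 0 and 0 RPM in the Controls and 0.0766, 0.376, 1.18, 0 and 0 RPM in KO 1 to KO 5. Both were also highest in KO 3.

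**Figure D2:**
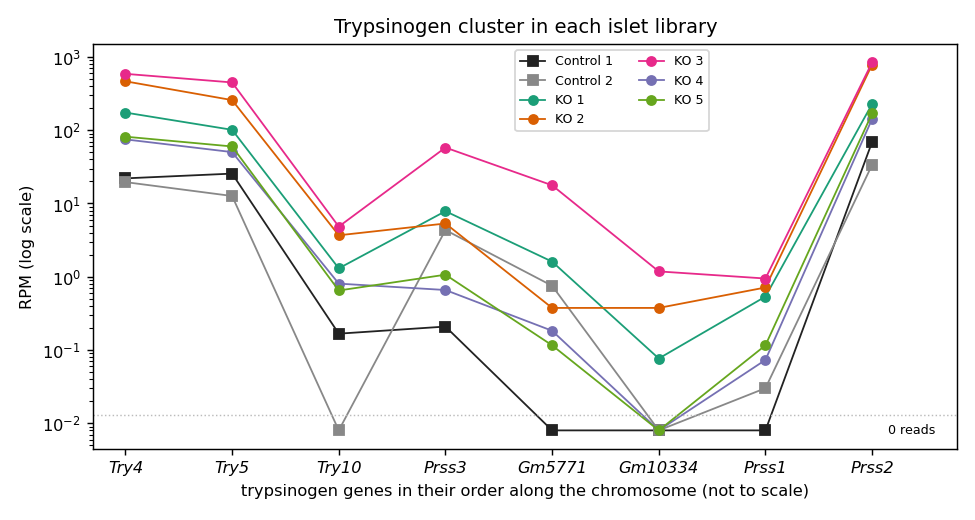
Level of 8 trypsinogen genes in each library, in RPM on a log axis, in their order along chromosome 6; squares are Controls, circles KO libraries, and symbols under the dotted line had 0 reads. KO 3 lies far above the other libraries at Prss3 and Gm5771, but close to KO 2 at Try4 and Prss2.

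Chymotrypsins and elastases cut proteins inside the chain and took 51.1% to 56.8% of enzyme reads by library. Chymotrypsinogen B (Ctrb1) stood at 216 and 125 RPM in the Controls and 951, 2771, 2874, 462 and 552 RPM in KO 1 to KO 5. The fitted log2 fold change was 2.79 (SE 0.62, adjusted p = 0.119 by limma). Cela1, an elastase, stood at 127 and 49.2 RPM in the Controls and 354, 1416, 1196, 217 and 288 RPM in KO 1 to KO 5. KO 2 was above KO 3 for Cela1, unlike Ctrb1. Cela1 by limma gave 2.70 (SE 0.64) on the log2 scale, with an adjusted p of 0.137. Cela2a stood at 79.9 and 33.2 RPM in the Controls and 314, 1134, 981, 182 and 219 RPM in KO 1 to KO 5. In all 3 the Controls did not overlap the KO libraries, and Control 1 was the higher Control. Cela3b stood at 40.2 and 24.3 RPM in the Controls and 169.8, 545, 536, 91.7 and 114 RPM in KO 1 to KO 5. Cela2a did not pass by limma, with a log2 fold change of 3.02 (SE 0.63, adjusted p = 0.0999). On the log2 scale the KO mean of Cela3b differed by 2.78 (SE 0.60) from the Control mean (adjusted p = 0.116 by limma). Ctrl and Ctrc, also of this family, had log2 fold changes of 2.83 and 2.94; Ctrc had the smallest adjusted p of the set (0.0977 by limma). The annotated span of Ctrc overlaps Cela2a, with 23.8% of Cela2a's 50-base words also found in Ctrc transcripts, so reads could have gone to either. Cela3a had 0 Control reads and 0.0696 to 0.605 RPM in the KO libraries. Set against 3 reads over both Controls together, which is 0.0525 RPM, it was 2.79-fold (KO 4) to 11.5-fold (KO 3) higher. In KO 5 its reads did not pass the 3-read floor. These ratios, and those of Rbpjl below, leave out counting error in the KO reads.

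Carboxypeptidases trim amino acids from the end of a protein chain. Cpa1 stood at 69.1 and 28.4 RPM in the Controls and 201, 677, 822, 118 and 138 RPM in KO 1 to KO 5. Its adjusted p by limma was 0.161, at a log2 fold change of 2.65 (SE 0.67). Cpb1 stood at 34.8 and 19.3 RPM in the Controls and 129, 473, 545, 77.7 and 83.5 RPM in KO 1 to KO 5. For Cpb1 limma gave a log2 fold change of 2.79 (SE 0.67, adjusted p = 0.140). For both, KO 3 was the highest library and the 2 Controls the lowest.

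Lipases and their cofactor break down dietary fat. Pancreatic lipase (Pnlip) stood at 82.1 and 34.3 RPM in the Controls and 288, 1212, 1165, 176 and 196 RPM in KO 1 to KO 5. The fitted log2 fold change was 2.98 (SE 0.70, adjusted p = 0.132 by limma). Its relative Pnliprp1 stood at 44.0 and 19.3 RPM in the Controls and 102, 442, 391, 74.0 and 93.4 RPM in KO 1 to KO 5, with folds below the median enzyme in all 5 KO libraries. Pnliprp1 by limma gave 2.46 (SE 0.62) on the log2 scale, with an adjusted p of 0.162. Carboxyl ester lipase (Cel) stood at 51.2 and 25.4 RPM in the Controls and 181, 662, 674, 99.86 and 106 RPM in KO 1 to KO 5. Cel did not pass by limma, with a log2 fold change of 2.72 (SE 0.68, adjusted p = 0.159). Colipase (Clps), which anchors lipase to fat droplets, stood at 7.148 and 5.67 RPM in the Controls and 29.1, 111, 162, 20.3 and 23.6 RPM in KO 1 to KO 5, so KO 3 was the highest library and the Controls lay close together. On the log2 scale the KO mean of Clps differed by 2.74 (SE 0.66) from the Control mean (adjusted p = 0.140 by limma). Pnliprp2 and the phospholipase Pla2g1b had log2 fold changes of 2.29 and 2.27, and every KO library lay above both Controls.

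Rnase1, a secreted ribonuclease, stood at 4.51 and 2.02 RPM in the Controls and 11.5, 46.6, 68.0, 11.2 and 11.8 RPM in KO 1 to KO 5. Its adjusted p by limma was 0.150, at a log2 fold change of 2.49 (SE 0.61). Klk1, tissue kallikrein, stood at 15.5 and 5.39 RPM in the Controls and 33.6, 127, 137, 21.8 and 28.2 RPM in KO 1 to KO 5, and 33.8% of its 50-base words occur in other kallikrein genes. For Klk1 limma gave a log2 fold change of 2.36 (SE 0.64, adjusted p = 0.200). Every KO library lay above both Controls for Rnase1 and for Klk1. Amy1, which encodes salivary amylase and is also made in other tissues, stood at 2.51 and 1.57 RPM in the Controls and 3.06, 6.76, 4.78, 1.905 and 2.81 RPM in KO 1 to KO 5. KO 4 lay inside the range of the Controls, and Amy1 was below the median enzyme fold in all 5 KO libraries. The fitted log2 fold change was 0.61 (SE 0.30, adjusted p = 0.504 by limma). The pancreatic amylase genes Amy2a1 to Amy2a5, near copies outside the set, together stood at 45.4 and 16.9 RPM in the Controls and 117, 553, 476, 77.7 and 103 RPM in KO 1 to KO 5.

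Granule proteins that are not digestive enzymes followed the enzymes, with the exception of Dmbt1. Syncollin (Sycn), which binds the granule membrane, stood at 7.90 and 7.11 RPM in the Controls and 38.5, 117, 147, 20.6 and 29.8 RPM in KO 1 to KO 5. Sycn by limma gave 2.67 (SE 0.59) on the log2 scale, with an adjusted p of 0.119. The lectin Zg16 stood at 7.90 and 3.01 RPM in the Controls and 23.1, 85.5, 89.3, 16.2 and 23.7 RPM in KO 1 to KO 5. Zg16 did not pass by limma, with a log2 fold change of 2.67 (SE 0.58, adjusted p = 0.116). Gp2, the major membrane protein of zymogen granules, stood at 13.5 and 4.55 RPM in the Controls and 36.5, 159.9, 104, 21.6 and 25.7 RPM in KO 1 to KO 5, and KO 2 was higher than KO 3. On the log2 scale the KO mean of Gp2 differed by 2.54 (SE 0.65) from the Control mean (adjusted p = 0.167 by limma). Cuzd1, another granule membrane protein, had 28 Control reads and stood at 1.61 to 16.8 RPM in the KO libraries, with folds from 3.28 (KO 4) to 34.2 (KO 3). Dmbt1, a mucosal scavenger protein that ductal and other epithelial cells also make, stood at 34.1 and 32.8 RPM in the Controls and 64.9, 38.7, 78.8, 36.4 and 49.9 RPM in KO 1 to KO 5. Its folds were 1.94, 1.16, 2.36, 1.09 and 1.49 in KO 1 to KO 5, so KO 2 lay near the Controls. Its adjusted p by limma was 0.376, at a log2 fold change of 0.61 (SE 0.23).

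Most of the 21 enzyme genes with at least 10 Control reads lay within 1.5 times of 1 median fold per library, but not all by the same factor. The median fold of the 21 over the Control mean was 4.73 in KO 1, 16.3 in KO 2, 17.4 in KO 3, 2.77 in KO 4 and 3.27 in KO 5. In KO 2, 18 of the 21 genes lay within 1.5 times of the median, and in each of the other 4 libraries 19 did. Below that range lay Amy1 in all 5 libraries and Prss3 in KO 2, KO 4 and KO 5. Above it lay Try4 in KO 1 and KO 3 and Pla2g1b in KO 2. The 5 granule genes had median folds of 4.24, 15.7, 16.4, 2.75 and 3.97 in KO 1 to KO 5. Between the highest and the lowest KO library, 19 of the 21 enzyme genes differed 5.91-fold to 8.93-fold.

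The shares of the larger enzyme classes moved little beside the total, and some single genes moved more. Trypsinogens were 12.3% to 15.8% of enzyme RPM over the 7 libraries, carboxypeptidases 9.40% to 11.1%, and lipases with colipase 17.8% to 21.1%. Try4 ran from 2.32% to 4.97% of enzyme RPM, Amy1 from 0.0389% to 0.331%, highest in the Controls, and Prss3 from 0.179% to 6.17% of trypsinogen RPM. Control 1 was above Control 2 for 21 of the 24 enzymes, and its enzyme total was 950.0 against 473.1 RPM. KO 2 and KO 3 were the top libraries for 23 of 24 enzymes, and the other KO libraries ran in the order KO 4, KO 5, KO 1 for 21 of 24. The fold against 1 Control alone shifts with it: the mean log2 of the median enzyme fold was 2.71 ± 1.27 (SD over 5 KO libraries), 2.34 against Control 1 and 3.27 against Control 2.

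Of the 4 transcription factors, Rbpjl and Ptf1a were highest in KO 2 and KO 3, the libraries with the most enzyme transcripts, and Nr5a2 and Bhlha15 differed little between libraries. Rbpjl, the DNA-binding PTF1 subunit made in acinar cells, had 0 reads in both Controls and 9, 30, 39, 5 and 9 reads in KO 1 to KO 5. That is 0.345, 1.13, 1.03, 0.183 and 0.209 RPM in KO 1 to KO 5. Set against 3 reads over both Controls (0.0525 RPM), these values were 6.56, 21.4, 19.5, 3.49 and 3.97-fold higher in the same order. Counting error in the KO reads is left out of these ratios. The lower 95% counting limit of Rbpjl was 0.0595 RPM in KO 4 and 0.0954 RPM in KO 5, so there the difference could be far smaller. For Rbpjl limma gave a log2 fold change of 0.61 (SE 0.23, adjusted p = 0.374). Per 1000 RPM of enzymes, Rbpjl stood at 0.0983, 0.0942, 0.0834, 0.0936 and 0.0894 RPM in KO 1 to KO 5. The 95% counting intervals of these ratios were 0.0449 to 0.187, 0.0636 to 0.135, 0.0593 to 0.114, 0.0304 to 0.218 and 0.0409 to 0.1697 in the same order, so at this depth differences of several-fold between libraries could not be seen. Rbpjl itself differed 6.15-fold between the highest and the lowest KO library. At the ratio pooled over the KO libraries, Control 1 and Control 2 would have held 2.03 and 1.40 reads, where 0 were found. The upper 95% counting limits of the Control ratios, 0.162 and 0.235 RPM per 1000 enzyme RPM, lie above the KO ratios.

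Ptf1a, the basic helix-loop-helix subunit of PTF1, had 6 reads in Control 1, 1 in Control 2 and 7, 40, 33, 14 and 11 across KO 1 to KO 5. It stood at 0.251 and 0.0301 RPM in the Controls and 0.268, 1.502, 0.867, 0.513 and 0.255 RPM in KO 1 to KO 5, so its KO libraries lay above both Controls, but KO 1 and KO 5 lay close to Control 1. KO 1, with more enzyme transcripts than KO 4, had less Ptf1a, and KO 3 had less than KO 2. The 95% counting intervals of KO 1 (0.108 to 0.552 RPM) and KO 4 (0.280 to 0.861 RPM) overlap. At the ratio of Ptf1a to enzymes pooled over the KO libraries, KO 1 to KO 5 would have held 9.32, 32.4, 47.6, 5.44 and 10.2 reads. Its folds over the Control mean were 1.91 (0.571 to 6.38) in KO 1, 10.7 (4.74 to 28.3) in KO 2, 6.18 (2.69 to 16.5) in KO 3, 3.65 (1.38 to 10.7) in KO 4 and 1.82 (0.643 to 5.53) in KO 5, with 95% counting intervals in brackets. The intervals in KO 1 and KO 5 hold 1, and the interval holds the median enzyme fold of the same library in KO 1, KO 2, KO 4 and KO 5 but not in KO 3. The fitted log2 fold change was 0.52 (SE 0.24, adjusted p = 0.477 by limma). The antisense gene Ptf1aos shares 47.3% of the 50-base words of Ptf1a, and the strand setting of the counting is not given in the sources used here, so its reads are uncertain.

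Nr5a2 and Bhlha15 stayed at 0.981 to 1.36 times the Control mean in every KO library. Nr5a2 stood at 1.00 and 1.145 RPM in the Controls and 1.46, 1.46, 1.34, 1.36 and 1.37 RPM in KO 1 to KO 5, so all 5 lay above both Controls. Its folds were 1.35 (0.880 to 2.06), 1.36 (0.889 to 2.07), 1.25 (0.844 to 1.84), 1.26 (0.816 to 1.93) and 1.27 (0.877 to 1.85) in KO 1 to KO 5, and all 5 intervals hold 1 and lie below the enzyme median of their library. Nr5a2 by limma gave 0.21 (SE 0.13) on the log2 scale, with an adjusted p of 0.614. Bhlha15 stood at 70.1 and 73.4 RPM in the Controls and 74.9, 70.4, 84.2, 83.9 and 80.3 RPM in KO 1 to KO 5, and KO 2, with one of the highest enzyme totals, lay between the Controls. The folds of Bhlha15 were 1.04 (0.988 to 1.10), 0.981 (0.928 to 1.04), 1.17 (1.12 to 1.23), 1.17 (1.11 to 1.23) and 1.12 (1.07 to 1.17) in KO 1 to KO 5. The intervals of KO 1 and KO 2 hold 1, and those of KO 3, KO 4 and KO 5 lie above 1. They cover counting error only. Bhlha15 did not pass by limma, with a log2 fold change of 0.13 (SE 0.08, adjusted p = 0.603). Between the highest and the lowest KO library Nr5a2 differed 1.09-fold and Bhlha15 1.196-fold. Set against enzymes, Bhlha15 ran from 5.89 to 155 RPM per 1000 enzyme RPM, so no constant ratio held.

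Per kilobase of exon, Bhlha15 was far more abundant than the other factors. Its mean level was 20.5 RPM per kb in the Controls and 22.5 in KO. Nr5a2 stood at 0.182 and 0.237 RPM per kb, Ptf1a at 0.0932 and 0.452, and Rbpjl at 0 and 0.101. On the same scale Ctrb1 stood at 194 RPM per kb in the Controls and 1733 in KO, the highest of the set. Which cells held the transcripts of each gene was not measured.

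**Figure D3:**
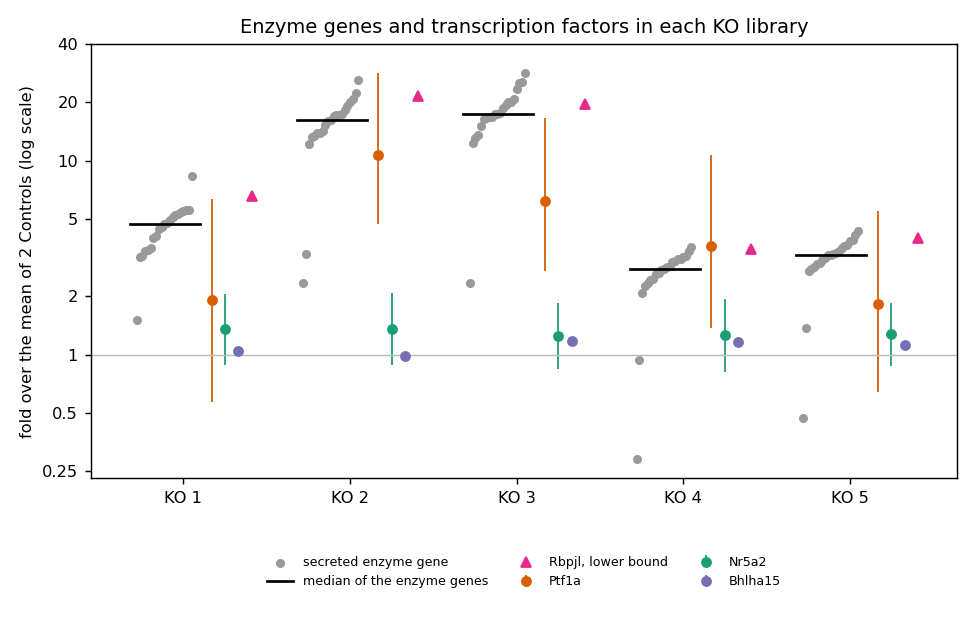
Fold over the mean of 2 Controls in each KO library, on a log axis. Grey points are the 21 enzyme genes with at least 10 Control reads, black bars their median, and coloured points 3 transcription factors with 95% counting intervals. Triangles, labelled lower bound, set Rbpjl against 3 Control reads, since it had 0, and leave out counting error in the KO reads. The enzyme median moves between 2.77 and 17.4, while Nr5a2 and Bhlha15 stay between 0.981 and 1.36.

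**Figure D4:**
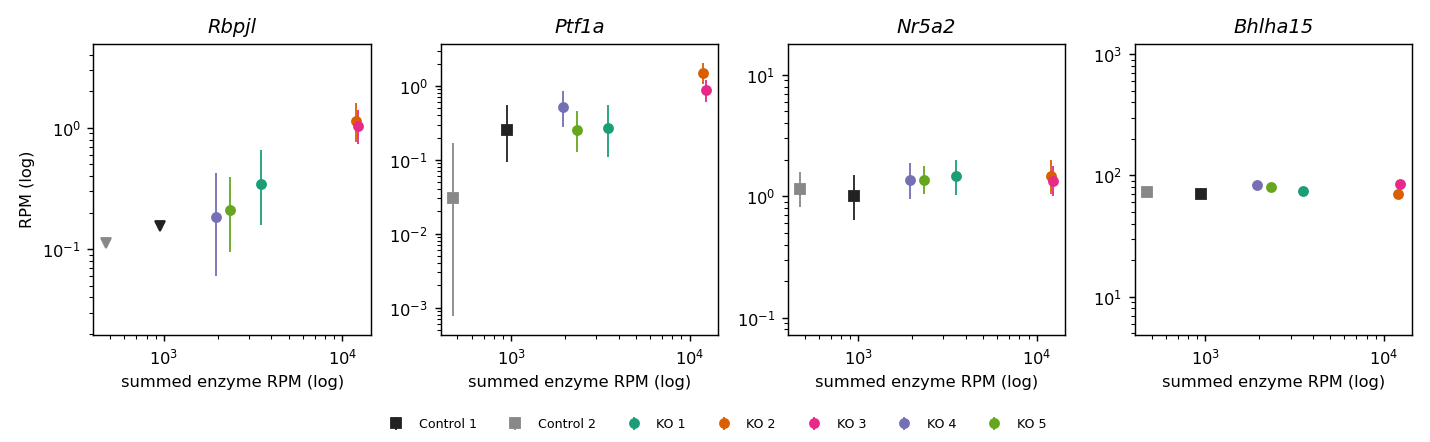
Level of each transcription factor (RPM) against the summed enzyme RPM of the same library, both on log axes, with 95% counting intervals; downward triangles give the upper counting limit for the Controls without Rbpjl reads. Rbpjl and Ptf1a are highest in KO 2 and KO 3, and Nr5a2 and Bhlha15 lie level. The order of Ptf1a in KO 1, KO 4 and KO 5 differs from that of the enzymes, but rests on 7, 14 and 11 reads with overlapping intervals.

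Gatm, a mitochondrial enzyme of creatine synthesis that is abundant in acinar cells, went the other way. It stood at 74.7 and 71.0 RPM in the Controls and 59.7, 54.3, 56.3, 58.6 and 62.7 RPM in KO 1 to KO 5, so all 5 KO libraries lay below both Controls. On the log2 scale the KO mean of Gatm differed by -0.32 (SE 0.07) from the Control mean (adjusted p = 0.127 by limma). Its folds were 0.819, 0.745, 0.772, 0.804 and 0.860 in KO 1 to KO 5, so the KO libraries differed little from each other.

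KO 2 and KO 3 had like enzyme totals, 11959 and 12295 RPM, and still differed gene by gene. Over the 34 genes, the ratio of KO 3 to KO 2 had a 95% counting interval above 1 for 16, below 1 for 9 and around 1 for 9. The same shares over all genes were not counted, so these counts are not a trait of the set. Median-of-ratios scaling would set the depth of KO 2 at 0.995 and of KO 3 at 0.951 of that used here. Genes with a ratio near 1 could thus change side. Above 1 lay Prss3 at 10.9, Dmbt1 at 2.04, Try5 at 1.74, Clps at 1.47 and Rnase1 at 1.46. Below 1 lay Ptf1a at 0.577, Gp2 at 0.652, Amy1 at 0.708, Pla2g1b at 0.740 and Cela1 at 0.845. These intervals cover counting error only, and with 1 library each they compare 2 libraries, not conditions.

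**Figure D5:**
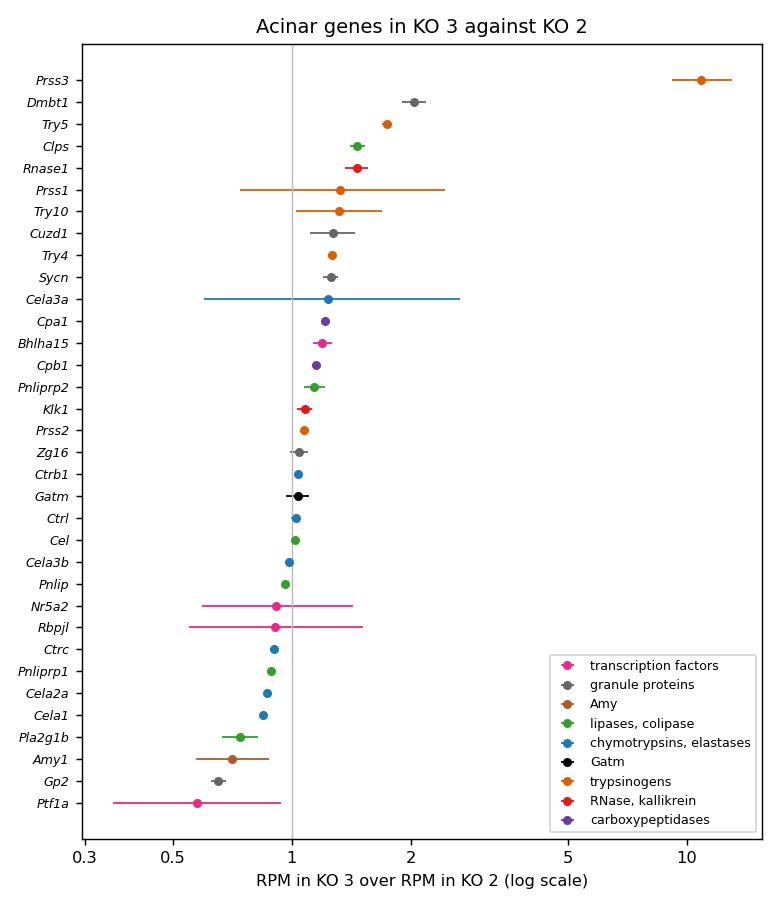
Ratio of RPM in KO 3 to RPM in KO 2 for each acinar gene, on a log axis, with 95% counting intervals, coloured by role. Most enzymes lie between 0.740 and 1.47, and Prss3 stands apart at 10.9.

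Promoters were searched for motifs of the factors above. RefSeq windows (GRCm38.p6) from 250 bases before to 50 after the start were matched by symbol for 29 of the 35 genes, Amy2b included, with 1 window per symbol (the first listed) here and in the whole table; Try5, Try10, Ctrc, Clps, Zg16 and Dmbt1 had no entry. Both strands were searched, and matches may overlap. CACCTG, a form of the E box CANNTG bound by basic helix-loop-helix factors, was in 58.6% of these windows and 20.03% of all 27025 windows, and CANNTG in 82.8% and 72.2%. TGGGAA, the core bound by RBPJ and RBPJL, was in 58.6% and 25.5%. Its overlapping form TTTCCC was in 34.5% and 25.2%. An E box with TGGGAA or TTTCCC within 30 bases, in any order and on either strand, was in 10 of 29 windows (34.5%), against 11.2% of all. The order and spacing of a PTF1 site were not required, so these are not shares of PTF1 sites. AAGGTCA and AAGGCCA, bound by receptors like LRH-1, were in 13.8% and 24.1%, against 4.66% and 6.05%. GATAA was in 65.5% and 25.8%, TATAAA in 34.5% and 14.2%, and CATATG in 0 of 29 and 3.91%. A match is a description and not a binding site, since no binding was measured here.

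In the 120 bases before the start, an E box with TGGGAA or TTTCCC within 30 bases was found in 7 of the 29 genes. These were 6 of 21 enzymes (Cel, Cela1, Cela2a, Cpa1, Pnliprp1, Prss1), 1 of 4 transcription factors (Rbpjl) and 0 of 3 granule genes. The share of all promoters with such a pair in this stretch was not counted, so these counts have no general share beside them. Most enzymes that were high in KO 2 and KO 3 therefore held none in these 120 bases, Ctrb1, Prss2 and Pnlip among them, nor did Ptf1a. In the full window searched above, Ctrb1, Ctrl and Cela3a did hold such a pair, while Prss2, Pnlip and Ptf1a held none. The 120-base stretch is shown for 4 genes chosen because they hold a pair (Rbpjl, Cela1, Prss1, Cpa1) and for 3 without one in it. Those 3 are the enzyme Ctrb1 and the factors Bhlha15 and Nr5a2. Capitals mark the E box and the TGGGAA or TTTCCC match that lie closest together, and a sequence without capitals holds no such pair in these 120 bases. Each is read 5' to 3' on the gene's strand, with positions on GRCm38.p6. Rbpjl is at chr2:164403074-164403193 (plus), Cela1 at chr15:100687921-100688040 (minus) and Prss1 at chr6:41458810-41458929 (plus). Cpa1 is at chr6:30639098-30639217 (plus), Ctrb1 at chr8:111691011-111691130 (minus), Bhlha15 at chr5:144190166-144190285 (plus) and Nr5a2 at chr1:136960449-136960568 (minus).
Rbpjl: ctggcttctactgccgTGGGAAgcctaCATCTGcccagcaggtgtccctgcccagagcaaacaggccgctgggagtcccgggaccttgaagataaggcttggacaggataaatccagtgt
Cela1: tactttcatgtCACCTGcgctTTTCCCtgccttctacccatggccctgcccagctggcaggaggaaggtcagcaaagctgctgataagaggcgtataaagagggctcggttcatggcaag
Prss1: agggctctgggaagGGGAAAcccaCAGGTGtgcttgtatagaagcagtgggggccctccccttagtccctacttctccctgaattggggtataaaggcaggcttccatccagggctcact
Cpa1: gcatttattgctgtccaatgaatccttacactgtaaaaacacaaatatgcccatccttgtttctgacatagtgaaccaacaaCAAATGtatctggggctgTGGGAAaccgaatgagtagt
Ctrb1: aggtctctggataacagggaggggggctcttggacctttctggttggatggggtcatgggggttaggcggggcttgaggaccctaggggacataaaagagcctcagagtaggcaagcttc
Bhlha15: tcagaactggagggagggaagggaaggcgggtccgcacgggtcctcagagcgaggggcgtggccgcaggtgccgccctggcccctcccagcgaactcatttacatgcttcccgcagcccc
Nr5a2: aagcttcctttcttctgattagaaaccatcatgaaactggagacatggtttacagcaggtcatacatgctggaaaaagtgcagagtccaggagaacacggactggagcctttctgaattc
The motifs of the pair are 5 bases apart in Rbpjl, 4 in Cela1, 4 in Prss1 and 12 in Cpa1. In this stretch Bhlha15 holds 1 E box and no pair, and Ctrb1 and Nr5a2 hold 0 E boxes.

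Other acinar genes, 26 listed and 24 tested, were mostly higher in KO. By limma 0 passed, and voom also called 0. A higher mean log2 level in KO was found for 22, and 16 had an unadjusted p under 0.05, beside 10.8% of all genes. Every KO library lay above both Controls for 18, beside 6.75% of all genes tested, and the median log2 fold change was 0.91. Serpini2, Aqp12, Aqp8 and Cckar reached the filter value in KO libraries alone, so they entered through the group where they are high. Serpini2 and Aqp12 are among the 18, and Aqp12 is among the 16. The highest log2 fold change of the list was that of Reg1, a regenerating protein of acinar cells, at 2.93 (SE 0.56, adjusted p = 0.0795). Fkbp11, a chaperone of secretory cells, stood at 49.95 and 49.2 RPM in the Controls and 69.4, 60.5, 66.3, 62.9 and 64.3 RPM in KO 1 to KO 5; its log2 fold change was 0.38 (SE 0.07, adjusted p = 0.0754). Amy2a3 had a log2 fold change of 2.66 (SE 0.66, adjusted p = 0.157), and the lowest was that of Sel1l, a factor of protein quality control, at -0.05.

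Partners and upstream factors of the acinar programme, 20 listed and 18 tested, showed no such pattern. By limma 0 passed, 2 had an unadjusted p under 0.05, beside 10.8% of all genes, and voom also called 0. Every KO library lay above both Controls for 1 (Foxa2), beside 6.75% of all genes tested, and the median log2 fold change was 0.04. The highest log2 fold change was that of Gata4, a zinc finger factor, at 0.44 (SE 0.23, adjusted p = 0.541), and the lowest that of Mecom at -0.40 (SE 0.17, adjusted p = 0.437). Foxa2, which islet cells also express, had one of 0.15 (SE 0.07, adjusted p = 0.452). Rbpj, the broadly expressed relative of Rbpjl, stood at 15.1 and 15.7 RPM in the Controls and 12.6, 17.1, 15.2, 16.96 and 18.2 RPM in KO 1 to KO 5.

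Markers of other cells in the preparation were summed in each library, and 0 of them were without reads in every library. The 12 duct markers summed to 2428 to 2446 RPM in the Controls and 2088 to 2858 in KO, with 2693 in KO 2 and 2117 in KO 3. Spp1 held most of the Control sums (1465 and 1445 RPM) and stood at 911 RPM in KO 3 and 894 in KO 4. A higher mean log2 level in KO was found for 9 of 12. Every KO library lay above both Controls for 3 (Krt8, Krt18 and Cldn7), beside 6.75% of all genes tested. By limma 0 duct markers passed (smallest adjusted p 0.0541). Without KO 2 and KO 3, left out with earlier results of these data known, 2 passed as higher, where 0.253% of all genes did. The 6 beta cell markers summed to 68167 to 75459 and 58092 to 86273 RPM, with the order of libraries unlike that of the enzymes. The 6 alpha, delta and PP markers summed to 4377 RPM in Control 1, 4198 in Control 2 and 9273, 6019, 7976, 4703 and 4119 across KO 1 to KO 5, so KO 1 to KO 3 were high here too. Stellate and fibroblast markers (8) summed to 28.6 RPM in Control 1 and 104.5 in Control 2, and to 21.5 to 34.7 in KO. Macrophage and lymphocyte markers (7) summed to 17.9 and 61.4 RPM in the Controls and to 12.7 to 24.3 in KO, with the B cell gene Ms4a1 at 0 in Control 1 and 4.40 RPM in Control 2. Endothelial markers (6) summed to 143.5 to 168.5 and 87.8 to 129.7 RPM. Control 2 was thus the lowest library in enzymes and the highest in stellate and immune markers. Every KO library lay below both Controls for 3 of 6 endothelial, 2 of 7 tested stellate and 1 of 6 beta cell markers. That was the case for 8.41% of all genes tested. Every KO library lay above both Controls for 2 of 6 alpha, delta and PP markers and 1 stellate marker, beside 6.75% of all genes tested. The part of these cells, and of how much exocrine tissue each islet preparation held, in the enzyme levels was not tested. By header letter, the f libraries KO 1 and KO 2 had median enzyme folds of 4.73 and 16.3, and the m libraries KO 3 to KO 5 of 17.4, 2.77 and 3.27.

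The authors' deposited table of selected genes holds 14 of the 34 genes (10 enzymes, 3 granule genes and 1 transcription factor), all higher in KO. The authors' deposited table lists 136 genes in all, 0.397% of the 34245 deposited genes, and 63 of them (0.184%) as higher in KO. In the authors' deposited table Try4 had a corrected p of 0.0117 and a log2 difference of 3.24. Rbpjl had a corrected p of 0.0129 and a log2 difference of 3.76 in the authors' deposited table, where a gene without reads is stored as 0.9 of the value of 1 read, so that difference rests on this stored value. The table was chosen on these samples and is not independent evidence of direction.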

How the data were processed

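Islet RNA from 2 Control and 5 knockout mice was compared, grouped by title. HISAT2, DESeq2 and GRCm38 appear in the submitters' processing notes, without version or role, and how reads were counted is not given in the sources used here. For all genes the authors deposited log2 values. Testing showed that 2 to the power of a value is a whole multiple of 1 step per library (within 0.02 for 99.9% to 100.0% of values), so reads and RPM were recovered; a gene without reads is stored as 0.9 of a step. The authors also deposited a table of selected genes with a corrected p-value, whose test the file header does not name, and a fold (ratio, Control over KO).

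Gene reads were 13335960 to 24590888 per library. KO was compared with Control on log2(RPM + 1) over 16212 genes with limma 3.58.1 in R 4.3.3 (intensity trend, two-sided, Benjamini-Hochberg). Genes entered when at least 2 libraries reached 0.366 RPM, and a log2 fold change on this scale understates low genes. Fold per library is linear RPM over the Control mean, with exact conditional binomial intervals at 95% that cover counting error only. Litters and days are not labelled, and the p-values rest on the spread between these mice alone. Scripts were tested on simulated data. Genes in the set are all accounted for, with full values by a written rule; members and lists were chosen with earlier results of these data known. Promoters came from RefSeq (GRCm38.p6) and coding sequences from GENCODE M21. Alternatives covered scaling, filter, pseudocount, voom, robust fits, replicate block, header sex letter, Control reference and left-out libraries.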

Additional observations from a re-analysis of the deposited data

Results flagged for a closer look

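Among the 34 acinar genes with 5 KO values each, 1 was marked because a single library lay far from the others. Prss3, a trypsinogen, stood at 58.0 RPM in KO 3 and at 0.659 to 7.85 RPM in the other KO libraries. The gap from KO 3 to the nearest KO library was 0.875 of the whole KO range, above the 0.71 that Dixon's rule sets for 5 samples. Chance marks about 1 group in 20. Its near copies Gm5771 and Gm10334, named after their values were seen, were also highest in KO 3, at 17.7 and 1.18 RPM. Reads shared between these copies, and their part in the Prss3 value, were not tested.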

How the results depend on the processing

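All 34 genes kept the sign of their log2 fold change under all 16 alternative fits. The count of called genes over the whole table moved from 10 to 20 with median-of-ratios scaling, 4 without a filter, 42 with robust empirical Bayes, 3 with the header sex letter as covariate and 47 without KO 2 and KO 3. Leaving out 1 library each gave 2 to 127 calls (127 without Control 1, 2 without Control 2, 3 without KO 3, 2 without KO 4). Where a Control was left out, the lone Control is assumed to vary like the KO libraries. The acinar count of 0 became 20 without KO 2 and KO 3, became 1 when the replicate block was fitted, and was 0 in the other fits, each left-out library included. The median log2 fold change of 2.52 ran from 1.64 to 2.98. Replicate numbers are shared by 2 pairs, whose deviations correlated at -0.10 and -0.24. With 2 Controls the deviations of one mirror those of the other, so these values cannot tell whether the numbers pair the mice. For the 2 transcription factors with at least 10 Control reads, the mean log2 of the median fold was 0.26; it became 0.33 against Control 1, 0.20 against Control 2, 0.13 as a ratio of summed RPM, 0.38 with Ptf1a admitted at 1 Control read and 0.17 as a log2(RPM + 1) difference. The summed ratio, which Bhlha15 dominates, was 0.986 in KO 2 against 1.17. The count of genes with every KO library above both Controls, 30, ran from 29 to 32 under settings chosen after seeing the data. Depth limits Rbpjl, Ptf1a, Prss1, Try10 and Cela3a, with 0 to 7 Control reads.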

Other observations

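Genes of protein folding and secretion outside the enzyme set showed both patterns. Pdia2, a disulphide isomerase of pancreatic acinar cells, stood at 2.21 ± 0.779 RPM in the Controls (SD, n = 2) and 19.98 ± 16.9 RPM in KO (SD, n = 5), and Erp27 at 0.354 ± 0.0316 and 2.07 ± 1.88 RPM. Dnajc3, a co-chaperone of the endoplasmic reticulum in most secretory cells, stood at 415 ± 40.6 and 414 ± 11.6 RPM, and Rab3d, a GTPase of secretory granules, at 190.3 ± 10.1 and 184.7 ± 9.70 RPM. These genes were picked from the list after their values were seen.

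Markers linked to a change of acinar cells towards duct cells (7 listed, 6 tested) summed to 74.1 and 87.3 RPM in the Controls and 147, 78.4, 87.2, 100.9 and 98.0 RPM in KO 1 to KO 5. By limma 0 passed, 1 had an unadjusted p under 0.05, beside 10.8% of all genes, and the median log2 fold change was 0.25. KO 1 was the highest library, while KO 2 and KO 3, with the most enzyme transcripts, lay near the Controls.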
